A study of Rattus norvegicus with 5 samples.

Results

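Ccl2, Cxcl1 and Il6 are 3 secreted signals of inflammation, and they are described here across cultures of neonatal rat ventricular cells. They were chosen by name, as the features ENSRNOG00000007159 (Ccl2), ENSRNOG00000002802 (Cxcl1) and ENSRNOG00000010278 (Il6), and all 3 were found among the 15077 features listed in all 5 tables, of 17066 listed in any. The cells came from the ventricles of wild-type Sprague Dawley pups at age P2 and were a primary mixture of myocytes and non-myocytes. The groups were an adenovirus with GFP at day 3 and at day 14, an adenovirus with the transcription factor TBX18 at day 3 and at day 14, and the TBX18 adenovirus with 0.2 µM A83-01, an inhibitor of TGF-beta receptor kinases. The title of the A83-01 sample gives day 14 and its treatment label gives 3 days, so the length of that exposure is not settled. Every group held 1 library, and all 5 groups carried a virus, so no uninfected level was measured. No p-value is given, and each interval is a 95% interval that covers counting error only.

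Ccl2 is a chemokine that draws monocytes through the receptor Ccr2, and Cxcl1 is a chemokine that draws neutrophils through Cxcr2. Il6 is a cytokine that acts through gp130, JAK kinases and Stat3. In the heart, fibroblasts, endothelial cells and macrophages are known sources of these signals, and their genes are known targets of NF-kB, the factor that interleukin-1 and tumour necrosis factor switch on.

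The promoters are shown because these genes are known for shared NF-kB, AP-1, CRE and C/EBP control. Of the 3 genes, Cxcl1 and Il6 had a window in the RefSeq table, and Ccl2 had none. The 250 bases before the start are printed from assembly GRCr8, on the minus strand of both loci, 5′ to 3′. Capitals mark the matches found on either strand to the motifs searched. Those were GGAATTTCC, GGGAATTTC, GGGACTTTC, GGGATTTCC and GGAATTCC for NF-kB, TGACTCA for AP-1, TGACGTCA for CRE, TTGCGCAAT and TTGCACAAT for C/EBP, and TATAAA for the TATA box.
Cxcl1, chr14:17479322-17479571: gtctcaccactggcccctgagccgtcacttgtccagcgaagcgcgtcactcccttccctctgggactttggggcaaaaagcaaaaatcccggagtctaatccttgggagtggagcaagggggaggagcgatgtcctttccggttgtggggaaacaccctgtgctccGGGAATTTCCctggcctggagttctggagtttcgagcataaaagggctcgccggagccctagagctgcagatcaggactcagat
Il6, chr4:5894576-5894825: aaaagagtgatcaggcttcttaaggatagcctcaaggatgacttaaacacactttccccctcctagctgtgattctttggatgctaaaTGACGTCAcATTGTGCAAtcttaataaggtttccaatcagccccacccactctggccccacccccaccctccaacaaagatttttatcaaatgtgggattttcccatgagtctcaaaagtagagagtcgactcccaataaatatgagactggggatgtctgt

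In the Cxcl1 window, the overlapping letters of GGAATTTCC and GGGAATTTC lay 83 and 84 bases before the start (offsets of -83 and -84). Any of the 5 NF-kB variants was present in 1.67% of the 33469 windows of the table. The Il6 window held TGACGTCA at an offset of -162, a motif present in 1.83% of windows. It also held TTGCACAAT on the opposite strand at -153, a motif present in 0.146% of windows, and either C/EBP motif was present in 0.194%. The shares are over whole windows, which were 300 bases long for Cxcl1 and Il6, of which 250 are printed. None of the NF-kB variants searched was found in the Il6 window. Only exact letters were searched, and the Il6 window held gggattttcc, which has an added T beside the searched GGGATTTCC. A lack of capitals therefore does not show that a window lacks such a site. A match describes letters in a window and was not tested as a site.

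Cells were divided into 2 compartments by clustering without the 3 genes and without the virus features. The tables pair no other ID with a name, so marker genes could not be read, and which compartment holds the myocytes and which the stromal cells was not established. Compartment 1 is the one richer in EGFP, at 93.2 CPM against 13.3 CPM in compartment 2 of the GFP library at day 3, where CPM is the UMIs of a feature per 1000000 UMIs of the pooled cells. hTBX18 stood at 23.9 CPM in compartment 1 and 1.36 CPM in compartment 2 of the TBX18 library at day 3. Between 6064 and 7904 cells a library were kept, at median depths of 15352 to 28555 UMIs. Compartment 1 held 58.0% and 50.4% of cells with GFP and TBX18 at day 3, and 33.2%, 16.0% and 34.2% at day 14 with GFP, TBX18 and TBX18 with A83-01. Libraries shared 7 to 20 cell barcodes pair by pair.

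In all 5 libraries Ccl2 and Cxcl1 were transcripts of compartment 2. It held from 96.7% to 98.96% of the Ccl2 UMIs of a library and from 95.4% to 98.6% of the Cxcl1 UMIs, while its share of all UMIs lay between 44.7% and 83.7%. In compartment 2, Ccl2 stood at 136.4 CPM (133.8 to 138.9) with GFP and 78.6 CPM (76.7 to 80.4) with TBX18 at day 3. At day 14 the GFP library gave 83.4 CPM (81.2 to 85.7), the TBX18 library 224.8 CPM (221.9 to 227.6), and the level was 19.0 CPM (18.1 to 20.01) once A83-01 was added. Ccl2 was thus highest in the TBX18 library at day 14 and lowest in the A83-01 library. TBX18 at day 3 and GFP at day 14 were the nearest neighbours in that order, with intervals that did not overlap.

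Cxcl1 in compartment 2 was near equal in both day 3 libraries, at 8.18 CPM (7.57 to 8.83) with GFP and 8.10 CPM (7.51 to 8.72) with TBX18. At day 14 the GFP library gave 49.1 CPM (47.4 to 50.9), the TBX18 library 93.4 CPM (91.6 to 95.3) and the A83-01 library 46.1 CPM (44.6 to 47.6). All 3 libraries of day 14 were above both of day 3. Unlike Ccl2, Cxcl1 with A83-01 lay close to its level with GFP.

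Il6 was sparse. Its UMIs in compartment 2 numbered 10 with GFP and 15 with TBX18 at day 3, and 27, 276 and 44 at day 14 with GFP, TBX18 and A83-01. At day 3 these UMIs gave 0.124 CPM (0.0594 to 0.228) for GFP and 0.171 CPM (0.0955 to 0.281) for TBX18. At day 14 they gave 0.421 CPM (0.277 to 0.613) for GFP, a level of 2.59 (2.29 to 2.91) for TBX18 and a level of 0.551 (0.400 to 0.739) for A83-01. Only the TBX18 library at day 14 had an interval apart from the other 4 libraries. Neighbouring libraries in the order below it overlapped.

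**Figure D1:**
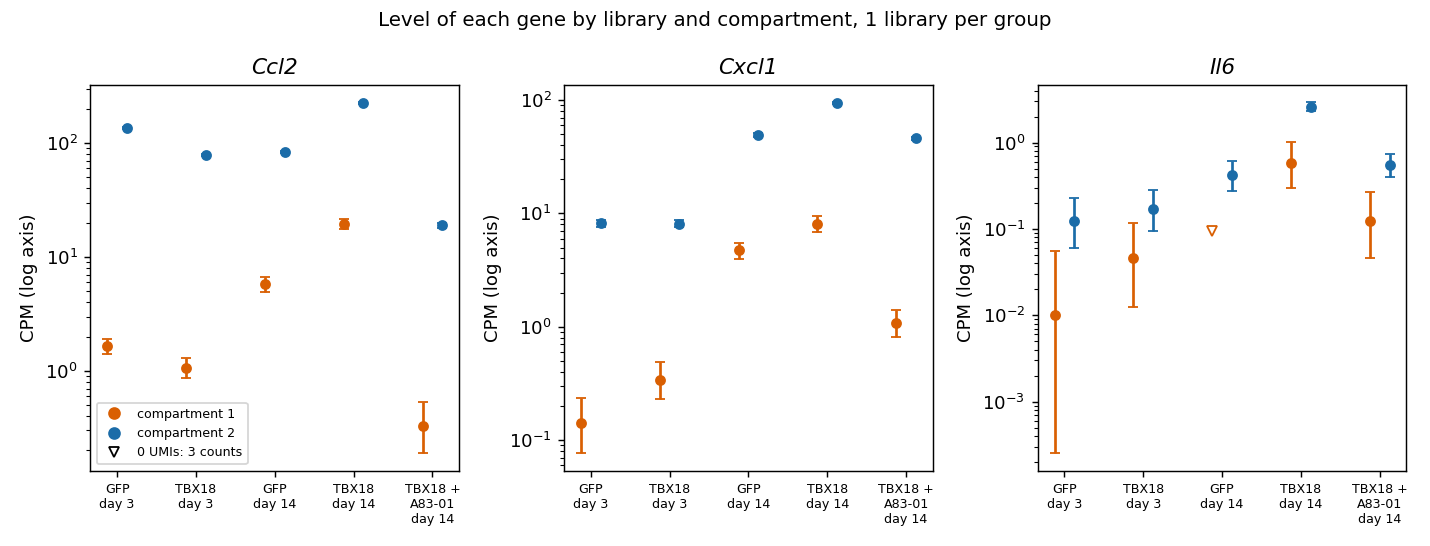
Level of Ccl2, Cxcl1 and Il6 in CPM (log axis) in each of the 5 libraries, for compartment 1 (orange) and compartment 2 (blue), with 95% counting intervals and an open triangle at the level of 3 counts where 0 UMIs were found. In compartment 2 the TBX18 library at day 14 is the highest for each gene, at 224.8, 93.4 and 2.59 CPM.

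Levels in compartment 1 were low. Ccl2 stood there at 1.65 CPM (1.41 to 1.92) with GFP and 1.07 CPM (0.866 to 1.31) with TBX18 at day 3, and at day 14 the GFP library gave 5.75 (4.95 to 6.64), the TBX18 library 19.6 (17.7 to 21.6) and the A83-01 library 0.332 CPM (0.189 to 0.538). Cxcl1 stood at 0.140, 0.342, 4.72, 8.08 and 1.08 CPM in the same order of libraries. Il6 had 1, 4, 0, 12 and 6 UMIs, and 3 counts correspond to 0.0938 CPM in the GFP library at day 14. Small clusters carried much of the Ccl2 there at day 14. With GFP, cluster 21 (259 cells) held 147 of the 184 UMIs at 25.8 CPM, while the main cluster 11 stood at 0.933 CPM. With TBX18, clusters 21 (97 cells) and 31 (58 cells) held 158 and 100 of the 407 UMIs at 71.3 and 141.4 CPM. The main cluster 10 stood at 7.96 CPM. For Cxcl1 with GFP, cluster 21 held 122 of the 151 UMIs at 21.4 CPM, against 1.09 CPM in cluster 11. For Cxcl1 with TBX18, clusters 31 and 21 held 65 and 43 of the 168 UMIs, and cluster 10 stood at 2.93 CPM. With no cells left out by doublet score, Ccl2 in compartment 1 stood at 6.71, 5.33, 10.4, 33.1 and 1.53 CPM in the same order.

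These levels are set beside those of 100 other features, the ones highest in compartment 2 over compartment 1 in the GFP libraries. The summed level of that set in compartment 1 was 1.72% and 3.04% of its level in compartment 2 at day 3 with GFP and TBX18, and 8.77%, 11.7% and 5.06% at day 14 with GFP, TBX18 and A83-01. For Ccl2 the same percentages were 1.21%, 1.36%, 6.90%, 8.71% and 1.74%, below the summed set in every library. For Cxcl1 they were 1.71%, 4.22%, 9.61%, 8.65% and 2.34%. Cxcl1 lay above the summed set only in the TBX18 library at day 3 and the GFP library at day 14. In the former, a single cell held 16 of the 30 Cxcl1 UMIs of compartment 1. In the latter, cluster 21 (259 cells) held 122 of the 151, so both values rest on few cells. The median over the single features of the set was 0.816%, 1.85%, 8.82%, 9.99% and 4.27% in the same order. With GFP at day 3, Ccl2 and Cxcl1 both lay above that median. The set was picked from the GFP libraries themselves, so its percentages there are low by that choice. For Il6 the percentages were 8.07%, 26.7%, 0%, 22.3% and 22.6%, from 1, 4, 0, 12 and 6 UMIs in compartment 1. They were above the summed set in every library but GFP at day 14. The part of free RNA, or of cells placed in the wrong compartment, in the compartment 1 levels was not tested further. In the TBX18 library at day 14, Ccl2 had 2.42 UMIs for each Cxcl1 UMI in compartment 1 (2.02 to 2.92) and 2.41 in compartment 2 (2.35 to 2.46). In the TBX18 library at day 3 the ratios were 3.13 (2.06 to 4.90) and 9.70 (8.98 to 10.5). With GFP they were 11.8 (6.83 to 22.0) and 16.7 (15.4 to 18.1) at day 3. At day 14 with GFP they were 1.22 (0.977 to 1.52) and 1.70 (1.62 to 1.77), with intervals apart. With A83-01 they were 0.308 (0.164 to 0.547) and 0.412 (0.388 to 0.438).

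The number of cells with a transcript was compared after thinning each cell to 5000 UMIs. In compartment 2, a Ccl2 UMI was present in 17.0% of cells (15.7 to 18.4) with GFP and 8.47% (7.49 to 9.53) with TBX18 at day 3. At day 14 it was present in 12.2% (11.2 to 13.3) of cells of the GFP library, 32.9% (31.8 to 34.1) of the TBX18 library and 4.56% (3.98 to 5.20) of the A83-01 library. The shares in compartment 1 were 0.718%, 0.602%, 1.49%, 7.05% and 0.245% in the same order. Median depths were 23694.5, 27401.5, 15451, 15320.8 and 16398 UMIs in compartment 2 and 22321.5, 29658, 15104, 15771 and 19464 UMIs in compartment 1. Unthinned, the compartment 2 shares for Ccl2 were 29.5%, 16.5%, 18.6%, 49.0% and 7.32%.

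Cxcl1 was detected in 2.87% (2.31 to 3.51) and 2.76% (2.20 to 3.41) of compartment 2 cells at day 3 with GFP and TBX18. It was detected in 11.2% (10.2 to 12.2), 20.2% (19.2 to 21.2) and 12.3% (11.4 to 13.3) at day 14 with GFP, TBX18 and A83-01, and in 0.0927% to 3.88% of compartment 1 cells over the 5 libraries. Unthinned, its compartment 2 shares were 9.50%, 8.73%, 18.4%, 31.4% and 19.6%. Il6 was detected in 1.04% (0.810 to 1.31) of compartment 2 cells with TBX18 at day 14 and in 0.0630% to 0.233% in the other 4 libraries. Its unthinned share with TBX18 at day 14 was 2.696%.

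**Figure D2:**
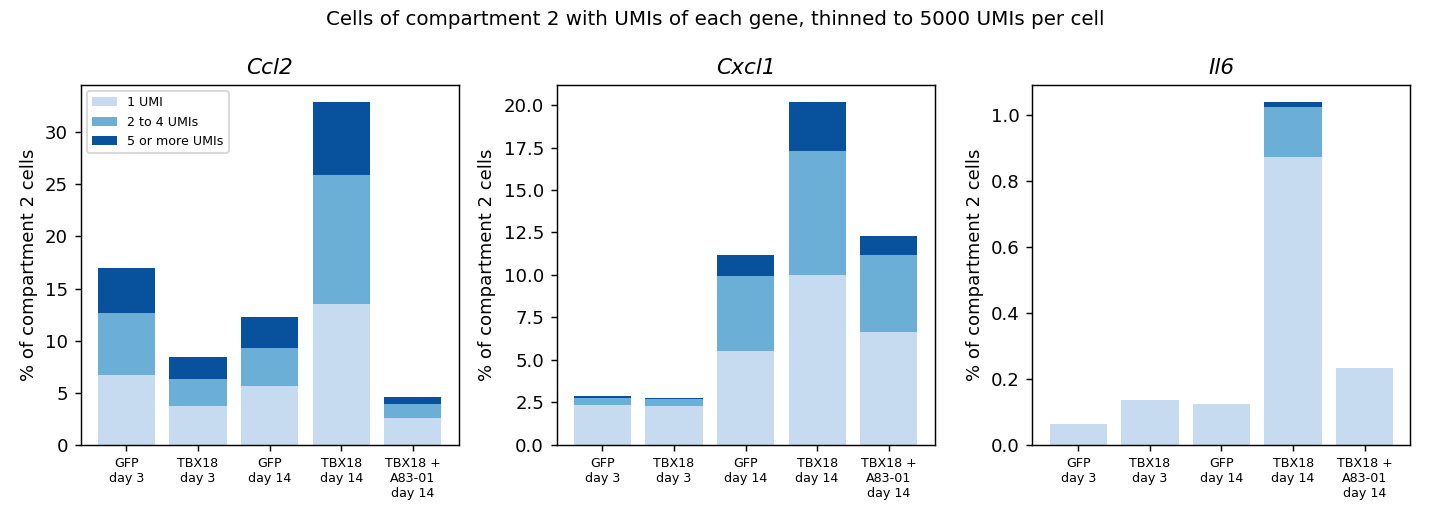
Percent of compartment 2 cells with 1, 2 to 4, or 5 or more UMIs of each gene after thinning to 5000 UMIs per cell, by library (bars start at 0; the panels have their own scales). For Ccl2 the cells with 5 or more UMIs were 7.04% with TBX18 at day 14 and 0.615% with A83-01.

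The transcripts were unevenly spread over cells. At day 3 the 1% of compartment 2 cells with the most Ccl2 UMIs held 32.8% of them with GFP and 56.6% with TBX18, and single cells reached 420 and 641 UMIs. At day 14 the top 1% held 42.0% with GFP, 20.1% with TBX18 and 52.7% with A83-01. The TBX18 library at day 14 had the lowest such share and also the largest percentage of cells with 10 or more Ccl2 UMIs, at 10.3% against 0.764% to 8.19% in the other libraries. In that library, 31.7% (29.8 to 33.7) of the 2184 cells with a Ccl2 UMI also had a Cxcl1 UMI, while 14.5% (13.5 to 15.6) of the 4452 cells lacking Ccl2 did, at the thinned depth. With A83-01 the shares were 24.7% (19.0 to 31.0) and 11.7% (10.8 to 12.7), and with GFP at day 14 they were 21.2% (17.7 to 25.1) and 9.77% (8.81 to 10.8).

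TBX18 was compared with GFP at day 3. In compartment 2 the log2 ratio of Ccl2 was -0.80 (-0.84 to -0.75), a level 1.74 times lower with TBX18. The log2 ratio of Cxcl1 was -0.014 (-0.17 to 0.14) and that of Il6 0.46 (-0.79 to 1.78), and both intervals held 0. Over the 4361 genes whose mean reached 20 CPM, the ratios had a median of -0.08 and a 5th percentile of -0.59. Of 7 clusters with at least 100 cells of both libraries, Ccl2 was lower with TBX18 in 5 and higher in 2, and in clusters 17 and 23 the interval held 0. Leaving out 1 cluster at a time gave from -1.12 without cluster 18 to 0.027 without cluster 7, which held 1998 of the 3024 TBX18 cells and 135 of the GFP cells. The highest ratio was that of cluster 18, 0.87 (0.79 to 0.96), at 737.1 CPM with TBX18 and 402.3 CPM with GFP. In compartment 1 the log2 ratio was -0.62 (-1.01 to -0.25) for Ccl2 and 1.29 (0.33 to 2.32) for Cxcl1, the latter from 30 and 14 UMIs. A single TBX18 cell held 16 of the 30, the thinned shares of cells were 0.100% and 0.0927%, and the mean of single-cell CPM gave a log2 ratio of 0.22.

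At day 14 all 3 genes were higher with TBX18 than with GFP in compartment 2. The log2 ratio was 1.43 (1.39 to 1.47) for Ccl2, 0.93 (0.87 to 0.99) for Cxcl1 and 2.62 (2.05 to 3.25) for Il6, levels 2.695, 1.90 and 6.14 times higher. Il6 lay under the mean of 20 CPM used for ranking, and of the other pair only Ccl2 was past 2-fold, as were 2.66% of the 5233 genes ranked in that direction. Ccl2 ranked 77 from the top and Cxcl1 164. In compartment 1 the log2 ratio was 1.77 (1.51 to 2.03) for Ccl2 and 0.78 (0.45 to 1.10) for Cxcl1, and Il6 had 12 UMIs against 0. Leaving out 1 cluster at a time moved these from 0.58 without cluster 11, which held 1298 of the GFP cells, to 3.25 without cluster 21 for Ccl2, and from -0.32 to 2.61 without the same clusters for Cxcl1. The main clusters of compartment 2 differed between these libraries, with cluster 4 holding 3375 of the GFP cells and clusters 3 and 5 holding 3533 and 2535 of the TBX18 cells. Leaving out 1 cluster at a time gave from 0.12 without cluster 4 to 1.85 without cluster 5 for Ccl2, and from 0.085 without cluster 3 to 1.61 without cluster 4 for Cxcl1. Clusters 5 and 12 held at least 100 cells of both libraries, and there the log2 ratio was 0.93 (0.77 to 1.09) and 1.96 (1.70 to 2.22) for Ccl2, and 1.36 (1.07 to 1.67) and 1.17 (0.67 to 1.71) for Cxcl1. For Il6 it was -0.54 (-1.83 to 1.01) and 0.48 (-1.91 to 3.78).

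With A83-01 added to TBX18, all 3 genes were lower than with TBX18 alone in compartment 2. Ccl2 had a log2 ratio of -3.56 (-3.64 to -3.49), a level 11.8 times lower. The log2 ratio was -1.02 (-1.07 to -0.96) for Cxcl1 and -2.23 (-2.72 to -1.77) for Il6, levels 2.03 and 4.69 times lower. Both genes above the mean of 20 CPM were past 2-fold, as were 6.71% of the 5302 genes ranked in that direction, and Ccl2 ranked 25 from the bottom against 348 for Cxcl1. The Cxcl1 interval reached short of 2-fold, and its ratio was -0.90 under median-of-ratios scaling, -0.95 with a pseudocount of 5 CPM and -0.95 without clusters under 300 cells. Cluster 1, with 3715 cells, was the main cluster of the A83-01 library. The log2 ratio of Cxcl1 was -2.55 without cluster 1 and -0.16 without cluster 3, and that of Ccl2 lay between -4.03 without cluster 5 and -3.01 without cluster 1. In cluster 12, which held 491 and 318 cells, the log2 ratio was -4.52 (-4.83 to -4.22) for Ccl2, -1.08 (-1.37 to -0.79) for Cxcl1 and 0.64 (-0.67 to 2.14) for Il6. In compartment 1 the log2 ratios were -5.88 (-6.71 to -5.17), -2.91 (-3.39 to -2.45) and -2.22 (-3.92 to -0.69) for Ccl2, Cxcl1 and Il6. The A83-01 and GFP comparisons of day 14 share the TBX18 library.

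**Figure D3:**
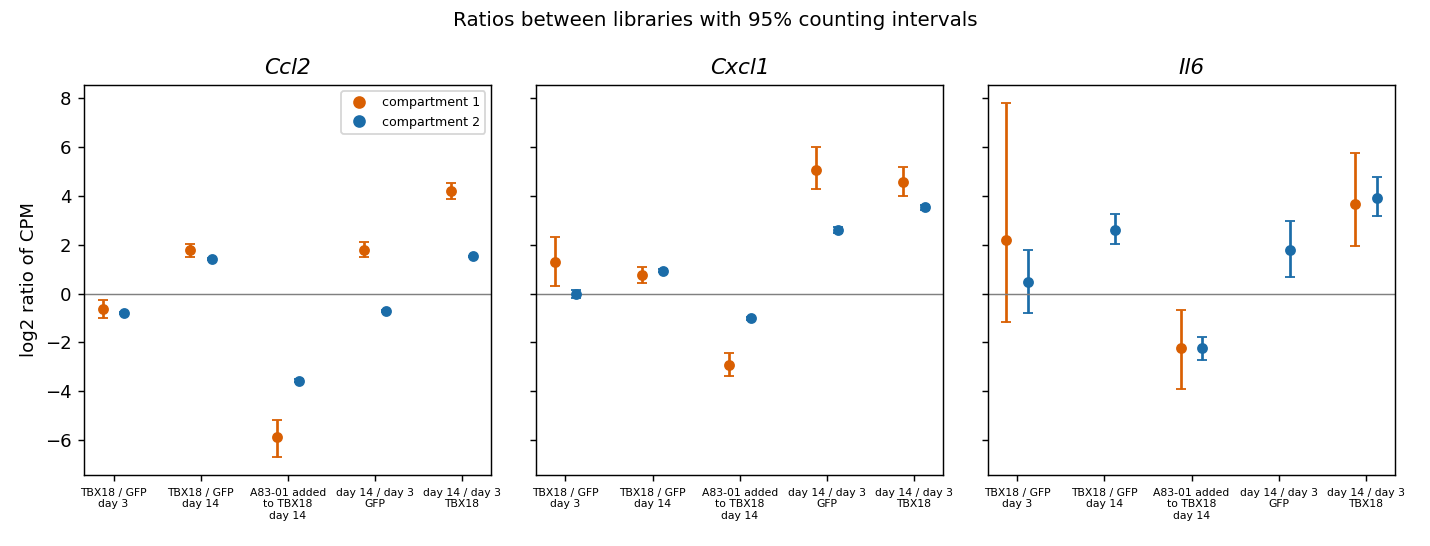
Log2 ratio of CPM for each gene in the 5 comparisons, compartment 1 in orange and compartment 2 in blue, with 95% counting intervals; ratios with 0 UMIs on a side are left out. Ccl2 in compartment 2 goes from -0.80 for TBX18 over GFP at day 3 to 1.43 at day 14, and stands at -3.56 for A83-01 added to TBX18.

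Day 14 was compared with day 3 across tables that differ in unit and in the range of cells deposited. In compartment 2 with GFP, Cxcl1 was higher at day 14 by a log2 ratio of 2.59 (2.46 to 2.71) while Ccl2 was lower at -0.71 (-0.76 to -0.66). The Ccl2 ratio was -1.16 without cluster 24 and 0.62 without cluster 4. Cxcl1 was past 2-fold, as were 16.7% of the 4872 genes ranked in that direction, and Il6 had a log2 ratio of 1.76 (0.67 to 2.98). With TBX18 the log2 ratios were 1.52 (1.48 to 1.56) for Ccl2, 3.53 (3.42 to 3.64) for Cxcl1 and 3.92 (3.17 to 4.78) for Il6. The Ccl2 ratio was 0.66 without cluster 7 and 2.04 without cluster 18. Both ranked genes were past 2-fold there, as were 25.3% of 4974 genes, and they ranked 591 and 87 from the top. In compartment 1 the ratios were 1.80 (1.49 to 2.11) for Ccl2 and 5.07 (4.28 to 5.98) for Cxcl1 with GFP (for Ccl2, -0.23 without cluster 21 and 2.99 without cluster 11), and 4.19 (3.87 to 4.53) and 4.56 (3.997 to 5.18) with TBX18. The summed level of the 100 compartment 2 features, given above, was also a larger percentage in compartment 1 at day 14.

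Small clusters of compartment 2 stood apart in these genes. Cluster 18, at day 3, held 3.39% of the GFP library and 17.5% of its Ccl2 UMIs, and 2.21% of the TBX18 library and 32.3% of its Ccl2 UMIs, with Cxcl1 at 4.72 and 0.652 CPM. Cluster 24, at day 14, had Ccl2 at 1035 CPM with GFP, 1937 CPM with TBX18 and 477.7 CPM with A83-01, from 183, 74 and 46 cells. A Ccl2 UMI was present in 83.6%, 95.9% and 82.6% of its cells. Its Cxcl1 stood at 64.6, 185.2 and 62.7 CPM.

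Cluster 28 was found in the TBX18 library at day 14 alone, with 94 cells at a median of 8722 UMIs. Il6 stood there at 84.9 CPM (66.9 to 106.3), and the cluster, 1.19% of the library, held 26.4% of its Il6 UMIs. Ccl2 stood at 874.9 CPM and Cxcl1 at 584.4 CPM in the same cells. The larger cluster 3 of that library had Il6 at 3.08 CPM (2.63 to 3.59) and held 56.6% of the Il6 UMIs. A cluster from 1 library may be that library rather than a kind of cell.

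**Figure D4:**
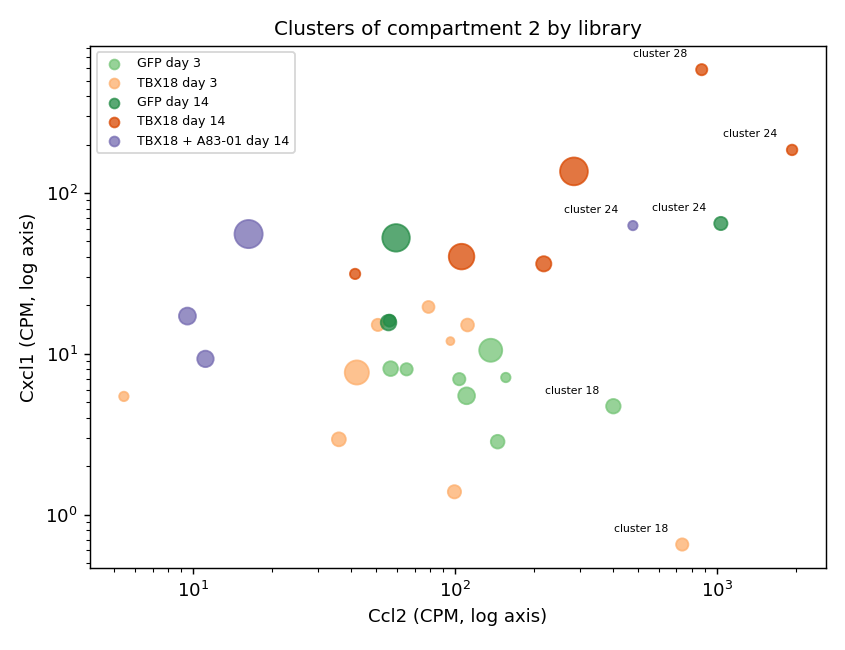
Ccl2 against Cxcl1 in CPM (both axes log) for each cluster of compartment 2 in each library with at least 20 cells and a UMI of both genes; the area of a point grows with the number of cells and the colour gives the library. Clusters 18, 24 and 28 lie far to the right, cluster 18 with Cxcl1 at 4.72 and 0.652 CPM and cluster 28 with the highest Cxcl1 at 584.4 CPM, and cluster 1, the main A83-01 cluster, lies at 16.3 CPM of Ccl2 and 55.6 CPM of Cxcl1.

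Over the 10 pools of 2 compartments by 5 libraries, log2 of CPM plus 0.5 was compared. Ccl2 and Cxcl1 had a Pearson's r of 0.83, and of 0.47 once the mean of each compartment was taken off. Il6 had r of 0.61 with Ccl2 and 0.78 with Cxcl1, and of 0.42 and 0.73 once the compartment means were taken off. Its level was 2.59 CPM in compartment 2 with TBX18 at day 14 and at most 0.577 CPM in every other pool. It had 0 UMIs in compartment 1 with GFP at day 14. How far the single high pool makes the r values of Il6 was not tested. Among 4960 features whose mean reached 20 CPM, the pattern most like Ccl2 belonged to ENSRNOG00000019381 (r of 0.99), and the one most like Cxcl1 to ENSRNOG00000030314 (r of 0.99). The pools share libraries, so these values only describe them.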

How the data were processed

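Single cells were captured with a droplet-based 3' kit that tags each RNA molecule with a UMI, per the labels' protocols. STAR 2.7.8a, Partek and the build Rnor_6.0 are named in the submitters' processing notes, without their roles; filters on cells and genes are not given in the sources used here. From their values, the deposited day 3 tables hold estimated counts, of UMIs. The day 14 tables were deposited as log2 of CPM plus 1 within each cell, also judging from the values, and UMIs were recovered by taking a cell's most common nonzero value as 1 UMI (99.7% of values whole within 0.05). The design had assumed counts throughout, so sums were rounded for exact intervals.

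Deposited tables held 6424 to 8859 barcodes and 104781421 to 202024200 UMIs. Barcodes with at least 500 genes were kept. Scrublet in scanpy 1.11.5 marked 0.0240% to 3.82% of a library, too few to have worked in several, so the barcodes with the top 6% of doublet scores in each library were left out, 360 to 464 a library. Cells were clustered together on 2000 variable genes, 30 components and 20 neighbours (leidenalg 0.10.2, resolution 1), and cluster profiles were joined by average linkage into 2 compartments. Levels carry exact Poisson intervals, ratios exact conditional intervals and shares exact Clopper-Pearson intervals. Ranks over genes used a pseudocount of 0.5 CPM and a mean of at least 20 CPM. The recovery of UMIs and the ratios were tested on simulated data.

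The gene table used here held 0 Ensembl IDs, so the planned marker lists, pathway lists and marker-based classes could not be applied. The rule for named genes was the 3 genes, the virus features and the closest patterns over pools; of the latter 1 ID is given for Ccl2 and 1 for Cxcl1. Clusters and left-out clusters were singled out after their values were seen. The 3 genes and the lists were chosen with earlier results of these data known.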

Additional observations from a re-analysis of the deposited data

Results flagged for a closer look

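Ccl2 differed in direction between the days. TBX18 over GFP gave a log2 ratio in compartment 2 of -0.80 at day 3 and 1.43 at day 14, and in compartment 1 of -0.62 at day 3 and 1.77 at day 14. Between day 3 and day 14, the log2 ratio of Ccl2 in compartment 2 was -0.71 with GFP and 1.52 with TBX18. With GFP it was 1.80 in compartment 1 and -0.71 in compartment 2. None of these differences was tested, since each group has 1 library. Leaving out 1 cluster at a time, the day 3 ratio in compartment 2 lay between -1.12 (without cluster 18) and 0.027 (without cluster 7). The GFP ratio between the days lay between -1.16 (without cluster 24) and 0.62 (without cluster 4) in compartment 2. In compartment 1 it lay between -0.23 (without cluster 21) and 2.99 (without cluster 11), so its sign turned in either compartment. Cluster 4 held 3375 of the 4049 GFP cells of compartment 2 at day 14, and cluster 24 held 1538 of the 5348 Ccl2 UMIs. The 0.62 thus rests on a small part of that library and cannot decide the direction in the compartment. In compartment 1 at day 14, cluster 21 held 259 of the 2015 GFP cells and 147 of the 184 Ccl2 UMIs.

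Barcodes with fewer than 500 genes entered no comparison. In the GFP library at day 3, 731 of them held 6 Ccl2 UMIs, above the floor of 3 counts used for flagging. That was 1.15 CPM (0.422 to 2.50), against 62.2 CPM in the barcodes with more genes.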

How the results depend on the processing

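Of 240 recomputed log2 ratios, 164 stayed within the counting interval of the reported value, as did 103 of 120 levels and 37 of 90 shares of cells; 0 turned direction in the comparisons called. With no cells left out by doublet score, 10 of 30 levels moved, all in compartment 1. Median-of-ratios scaling shifted the log2 ratios by -0.38 to 0.40. Leaving out the top 1% of cells with the most UMIs of a gene, and clusters under 300 cells, were chosen after seeing the data; the former gave no value where a sum reached 0. Classes from marker sums and the pathway list counts were not run, for lack of gene names. Depth limits Il6, with 10 to 276 UMIs in compartment 2. No paired analysis was possible because each group has 1 library and no replicate number. The causes of the changes below were not tested, other than that a larger pseudocount or fewer UMIs per cell lowers values by construction. TBX18 with A83-01 at day 14 is written A83-01.

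With the setting "pseudocount of 5 CPM", log2 ratios moved as follows. In compartment 1, Ccl2 had -0.13 for TBX18 day 3/GFP day 3, 1.19 for TBX18 day 14/GFP day 14, -2.21 for A83-01/TBX18 day 14, 0.69 for GFP day 14/GFP day 3 and 2.02 for TBX18 day 14/TBX18 day 3. For Cxcl1 of compartment 1 the values were 0.056 for TBX18 day 3/GFP day 3, 0.43 for TBX18 day 14/GFP day 14, -1.11 for A83-01/TBX18 day 14, 0.92 for GFP day 14/GFP day 3 and 1.29 for TBX18 day 14/TBX18 day 3. Compartment 2 gave Ccl2 at 1.38 for TBX18 day 14/GFP day 14, -3.26 for A83-01/TBX18 day 14 and 1.46 for TBX18 day 14/TBX18 day 3. The Cxcl1 values of compartment 2 were 0.86 for TBX18 day 14/GFP day 14, -0.95 for A83-01/TBX18 day 14, 2.04 for GFP day 14/GFP day 3 and 2.91 for TBX18 day 14/TBX18 day 3. In the cells of compartment 2, Il6 was at 0.48 for TBX18 day 14/GFP day 14, -0.45 for A83-01/TBX18 day 14, 0.081 for GFP day 14/GFP day 3 and 0.55 for TBX18 day 14/TBX18 day 3. Il6 in compartment 1 stood at -0.12 for A83-01/TBX18 day 14 and 0.14 for TBX18 day 14/TBX18 day 3.

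With the setting "mean of the CPM of single cells", log2 ratios moved as follows. In compartment 1, Cxcl1 had 0.22 for TBX18 day 3/GFP day 3, 1.41 for TBX18 day 14/GFP day 14, 4.08 for GFP day 14/GFP day 3 and 5.28 for TBX18 day 14/TBX18 day 3. For Ccl2 of compartment 1 the values were 2.21 for TBX18 day 14/GFP day 14 and 1.17 for GFP day 14/GFP day 3. Compartment 2 gave Ccl2 at 1.18 for TBX18 day 14/GFP day 14, -3.42 for A83-01/TBX18 day 14 and -0.48 for GFP day 14/GFP day 3. The Cxcl1 values of compartment 2 were 1.05 for TBX18 day 14/GFP day 14 and 3.70 for TBX18 day 14/TBX18 day 3.

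With the setting "day 3 cells limited to the gene and UMI range of day 14", log2 ratios moved as follows. In the cells of compartment 2, Ccl2 was at -1.02 for TBX18 day 3/GFP day 3, -0.85 for GFP day 14/GFP day 3 and 1.60 for TBX18 day 14/TBX18 day 3. Cxcl1 in compartment 2 stood at 2.42 for GFP day 14/GFP day 3. In compartment 1, Cxcl1 had 5.19 for TBX18 day 14/TBX18 day 3.

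With the setting "median-of-ratios scaling", log2 ratios moved as follows. For Ccl2 of compartment 2 the values were -0.70 for TBX18 day 3/GFP day 3, 1.30 for TBX18 day 14/GFP day 14, -3.45 for A83-01/TBX18 day 14 and 1.25 for TBX18 day 14/TBX18 day 3. Compartment 2 gave Cxcl1 at 0.79 for TBX18 day 14/GFP day 14, -0.90 for A83-01/TBX18 day 14 and 3.26 for TBX18 day 14/TBX18 day 3. The Ccl2 values of compartment 1 were 3.81 for TBX18 day 14/TBX18 day 3.

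With the setting "top 1% of cells left out", log2 ratios moved as follows. In the cells of compartment 2, Ccl2 was at -1.43 for TBX18 day 3/GFP day 3, 1.89 for TBX18 day 14/GFP day 14, -4.32 for A83-01/TBX18 day 14, -0.92 for GFP day 14/GFP day 3 and 2.40 for TBX18 day 14/TBX18 day 3. Cxcl1 in compartment 2 stood at -0.30 for TBX18 day 3/GFP day 3, 1.10 for TBX18 day 14/GFP day 14, 2.86 for GFP day 14/GFP day 3 and 4.26 for TBX18 day 14/TBX18 day 3. In compartment 1, Ccl2 had 2.71 for TBX18 day 14/GFP day 14 and 0.82 for GFP day 14/GFP day 3. For Cxcl1 of compartment 1 the values were 1.60 for TBX18 day 14/GFP day 14 and -3.69 for A83-01/TBX18 day 14.

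With the setting "clusters under 300 cells left out", log2 ratios moved as follows. Compartment 1 gave Ccl2 at 1.41 for TBX18 day 14/GFP day 14 and 3.86 for TBX18 day 14/TBX18 day 3. The Cxcl1 values of compartment 1 were 0.00038 for TBX18 day 14/GFP day 14, -2.14 for A83-01/TBX18 day 14 and 3.81 for TBX18 day 14/TBX18 day 3. In the cells of compartment 2, Cxcl1 was at 0.86 for TBX18 day 14/GFP day 14 and -0.95 for A83-01/TBX18 day 14.

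With the setting "no cells left out by doublet score", log2 ratios moved as follows. Cxcl1 in compartment 1 stood at 1.10 for TBX18 day 14/GFP day 14, -2.11 for A83-01/TBX18 day 14 and 4.09 for GFP day 14/GFP day 3. In compartment 1, Ccl2 had -4.44 for A83-01/TBX18 day 14, 0.64 for GFP day 14/GFP day 3 and 2.64 for TBX18 day 14/TBX18 day 3.

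With the setting "clustering at resolution 2", log2 ratios moved as follows. For Ccl2 of compartment 2 the values were 1.49 for TBX18 day 14/GFP day 14 and -0.79 for GFP day 14/GFP day 3. Compartment 1 gave Ccl2 at 1.15 for GFP day 14/GFP day 3.

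With the setting "no cells left out by doublet score", CPM levels moved as follows. The Ccl2 values of compartment 1 were 6.71 for GFP day 3, 5.33 for TBX18 day 3, 10.4 for GFP day 14, 33.1 for TBX18 day 14 and 1.53 for A83-01. In the cells of compartment 1, Cxcl1 was at 0.443 for GFP day 3, 0.605 for TBX18 day 3, 7.53 for GFP day 14, 16.2 for TBX18 day 14 and 3.74 for A83-01.

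With the setting "clustering at resolution 2", CPM levels moved as follows. Ccl2 in compartment 1 stood at 2.59 for GFP day 3 and 1.32 for TBX18 day 3. In compartment 2, Ccl2 had 79.8 for GFP day 14.

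With the setting "day 3 cells limited to the gene and UMI range of day 14", CPM levels moved as follows. For Ccl2 of compartment 2 the values were 150.2 for GFP day 3 and 74.2 for TBX18 day 3. Compartment 2 gave Cxcl1 at 9.13 for GFP day 3. The Cxcl1 values of compartment 1 were 0.223 for TBX18 day 3.

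With the setting "thinning to 2000 UMIs", percentages of cells with a UMI moved as follows. Within compartment 1, Ccl2 was at 0.405 for GFP day 3, 0.293 for TBX18 day 3, 0.993 for GFP day 14, 3.24 for TBX18 day 14 and 0 for A83-01. Cxcl1 in compartment 1 stood at 0.0225 for GFP day 3, 0.794 for GFP day 14, 1.42 for TBX18 day 14 and 0.163 for A83-01. In compartment 2, Ccl2 had 10.2 for GFP day 3, 5.56 for TBX18 day 3, 7.90 for GFP day 14, 21.7 for TBX18 day 14 and 2.35 for A83-01. For Cxcl1 of compartment 2 the values were 1.43 for GFP day 3, 1.22 for TBX18 day 3, 6.42 for GFP day 14, 11.8 for TBX18 day 14 and 6.62 for A83-01. Compartment 2 gave Il6 at 0 for TBX18 day 3 and 0.603 for TBX18 day 14.

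With the setting "no thinning", percentages of cells with a UMI moved as follows. The Ccl2 values of compartment 1 were 3.47 for GFP day 3, 2.93 for TBX18 day 3, 4.07 for GFP day 14, 15.2 for TBX18 day 14 and 0.612 for A83-01. Within compartment 2, Ccl2 was at 29.5 for GFP day 3, 16.5 for TBX18 day 3, 18.6 for GFP day 14, 49.0 for TBX18 day 14 and 7.32 for A83-01. Cxcl1 in compartment 2 stood at 9.50 for GFP day 3, 8.73 for TBX18 day 3, 18.4 for GFP day 14, 31.4 for TBX18 day 14 and 19.6 for A83-01. In compartment 2, Il6 had 0.310 for GFP day 3, 0.397 for TBX18 day 3, 0.642 for GFP day 14, 2.696 for TBX18 day 14 and 0.679 for A83-01. For Cxcl1 of compartment 1 the values were 0.488 for TBX18 day 3, 3.62 for GFP day 14, 7.59 for TBX18 day 14 and 1.80 for A83-01. Compartment 1 gave Il6 at 0.130 for TBX18 day 3.

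With the setting "no cells left out by doublet score", percentages of cells with a UMI moved as follows. The Ccl2 values of compartment 1 were 1.22 for GFP day 3, 1.13 for TBX18 day 3, 8.87 for TBX18 day 14 and 0.646 for A83-01. Among cells of compartment 1, Cxcl1 was at 0.252 for GFP day 3, 5.13 for TBX18 day 14 and 1.33 for A83-01.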

Other observations

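Cells with and without a UMI of the virus of their own library were compared within compartment 2 at matched depth. In the TBX18 library at day 3, Ccl2 stood at 204.9 CPM in 180 cells with a ZsGFP or hTBX18 UMI and at 75.8 CPM in 180 cells without one, a log2 ratio of 1.44 (1.29 to 1.59). The 180 cells with a transgene UMI held 1391 Ccl2 UMIs. In that compartment the top 1% of cells held 56.6% of the Ccl2 UMIs, and a single cell reached 641. How far a few cells make this ratio was not tested, and the interval does not cover it. In the GFP library at day 3 the log2 ratio for EGFP was -0.53 (-0.65 to -0.40), from 281 cells each. At day 14 the log2 ratio of Ccl2 was 0.06 (-0.14 to 0.26) with TBX18 and 0.04 (-0.13 to 0.21) with GFP.

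Cxcl1 in compartment 2 was higher in cells with a transgene UMI in the GFP library at day 3, by a log2 ratio of 0.96 (0.52 to 1.41). In the TBX18 library at day 14 it was higher by 1.38 (1.04 to 1.73) from 123 cells each. The levels there were 117.5 CPM with a transgene UMI and 45.1 CPM without, while the whole of compartment 2 stood at 93.4 CPM. As in each such split, the cells without one were 1 random draw at matched depth. The interval does not cover the spread between draws. Cxcl1 was also higher in the GFP library at day 14, by 0.32 (0.11 to 0.53), and with A83-01, by 0.41 (0.00019 to 0.83). In the TBX18 library at day 3 it was 0.06 (-0.55 to 0.68). A cell without a transgene UMI may still carry the virus, and a transgene UMI in compartment 2 may be free RNA. Neither was tested. In compartment 1 the Ccl2 interval held 0 in all 5 libraries. There, Cxcl1 with TBX18 at day 3 was lower in cells with a transgene UMI, at -2.27 (-4.02 to -0.85) from 5 and 24 UMIs. A single cell of that compartment held 16 Cxcl1 UMIs. In the other libraries the Cxcl1 interval of compartment 1 held 0.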
